A study of Mus musculus with 8 samples.

Results

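A set of 9 transcription factor genes that act in or around entry into the B lineage was followed across 4 sorted bone marrow populations of the mouse: Ebf1, Pax5, Pou2af1, Lef1, Bach2, Myb, Sox4, Runx1 and Bcl6. They were taken as a list of names, and all 9 were found among the 27179 Entrez Gene identifiers of the count table. The study asked what happens to early B cells when the Ets family transcription factor Erg is lost. Pre–proB, proB and preB cells were sorted from Ergfl/fl mice, and pre–proB cells also from Rag1CreT/+;ErgΔ/Δ mice, and RNA of 2 biological replicates of each population was sequenced, 8 libraries in all, and the mice were 7 to 10 weeks old. In Rag1CreT/+;ErgΔ/Δ mice, Cre expressed from the Rag1 locus, which is active in lymphoid progenitors, deletes both floxed Erg alleles. Since the Ergfl/fl mice had no Rag1Cre allele, Cre and Erg differed together between genotypes, and the Erg alleles of all 4 populations were floxed ones, deleted in 1 population.

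Ebf1 and Pax5 stand at the centre of the network that makes a lymphoid progenitor a B cell. Ebf1 opens the B-lineage programme and activates Pax5, and Pax5 then commits the cell by activating B-cell genes and repressing those of other lineages. Pou2af1 is a coactivator of the octamer-binding factors, Lef1 is a nuclear partner of β-catenin in Wnt signalling, and Bach2 and Bcl6 are transcriptional repressors that act at the pre-BCR checkpoint and again in mature B cells. Myb, Sox4 and Runx1 are expressed more widely in blood progenitors and are each needed for early B lymphopoiesis.

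The genes lie on 7 chromosomes of GRCm38. Ebf1 (Entrez Gene 13591) spans 44618100 to 45008096 of chromosome 11, Pax5 (18507) 44524748 to 44710694 of chromosome 4, Pou2af1 (18985) 51213690 to 51240079 of chromosome 9 and Lef1 (16842) 131110297 to 131224357 of chromosome 3. Bach2 (12014) spans 32238413 to 32586109 of chromosome 4, Myb (17863) 21124930 to 21160984 of chromosome 10 and Sox4 (20677), a gene of 1 exon, 28948919 to 28953699 of chromosome 13. Runx1 (12394) and Bcl6 (12053) lie on chromosome 16, from 92601466 to 92826074 and from 23965050 to 23988866. The sequences below are the 250 bases upstream of RefSeq starts (GRCm38.p6) of Ebf1, Pax5, Pou2af1 and Lef1, shown because these genes fell together in Rag1CreT/+;ErgΔ/Δ cells. For Ebf1, which has 2 RefSeq starts in the table, both windows are given, and for Lef1 the first of 4, the others holding 0, 1 and 1 of the string marked. Each is written 5′ to 3′ on the strand of the gene, and capitals mark GGAAG, a core letter string of Ets family sites, on either strand. Among the windows printed, the bases after the start were found in a GENCODE M21 transcript for the first Ebf1 start alone.
Ebf1, first start (chr11:44617850-44618099, + strand): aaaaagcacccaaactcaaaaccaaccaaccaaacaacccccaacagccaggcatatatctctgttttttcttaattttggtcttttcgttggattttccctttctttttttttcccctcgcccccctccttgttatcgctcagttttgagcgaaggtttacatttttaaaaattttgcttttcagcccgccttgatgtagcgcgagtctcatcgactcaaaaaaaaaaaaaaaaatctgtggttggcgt
Ebf1, second start (chr11:44619978-44620227, + strand): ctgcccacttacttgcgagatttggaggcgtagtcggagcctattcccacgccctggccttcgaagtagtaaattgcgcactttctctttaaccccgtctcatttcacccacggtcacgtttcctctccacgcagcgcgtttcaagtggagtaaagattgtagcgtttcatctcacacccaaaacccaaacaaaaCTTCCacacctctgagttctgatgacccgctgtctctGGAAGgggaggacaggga
Pax5 (chr4:44710695-44710944, − strand): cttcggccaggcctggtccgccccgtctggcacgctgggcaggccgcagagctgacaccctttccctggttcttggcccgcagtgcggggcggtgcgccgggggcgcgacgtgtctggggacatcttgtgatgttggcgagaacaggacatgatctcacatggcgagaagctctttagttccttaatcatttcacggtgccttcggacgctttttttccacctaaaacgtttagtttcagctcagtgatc
Pou2af1 (chr9:51213440-51213689, + strand): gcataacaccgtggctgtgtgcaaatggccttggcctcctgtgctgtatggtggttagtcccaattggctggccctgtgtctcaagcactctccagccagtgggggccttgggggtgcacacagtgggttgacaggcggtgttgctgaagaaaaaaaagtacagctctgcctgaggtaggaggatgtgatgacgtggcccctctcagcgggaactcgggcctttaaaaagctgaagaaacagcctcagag
Lef1, first start (chr3:131110047-131110296, + strand): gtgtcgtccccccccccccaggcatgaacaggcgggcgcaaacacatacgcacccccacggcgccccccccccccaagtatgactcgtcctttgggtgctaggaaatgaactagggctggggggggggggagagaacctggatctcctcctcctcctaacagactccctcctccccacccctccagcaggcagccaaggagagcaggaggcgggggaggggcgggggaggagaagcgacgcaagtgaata
The string GGAAG was present 2 times in the second Ebf1 window and 0 times in the other 4 windows printed. Of all 32851 promoter windows of this length in the RefSeq table, 64.1% held it. Bach2 and Sox4 had 2 matches each, Myb had 0, the Runx1 windows had 1 and 0, and the Bcl6 windows 1 each. The string CCCNNGGG, a core of Ebf1 sites, was in 11.8% of all windows and in 0 of the windows of the 9 genes. The string TGTGGT, a core of Runx sites, was in 14.0% of all windows and in the first Ebf1 window alone among those of the 9 genes. A match in such a window is a description of letters, and a missing match says only that the letters are not there.

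Library totals lay between 15565381 and 18457632 counts. Levels are given as CPM, counts scaled to the TMM-normalized library size. Erg itself, the targeted gene, was at 69.1 and 25.3 CPM in the Ergfl/fl and 2.50 and 2.58 CPM in the Rag1CreT/+;ErgΔ/Δ pre–proB libraries. Both pre–proB populations held RNA of genes that mark other cells. Summed over 7 plasmacytoid dendritic cell markers, the pre–proB libraries held 11805 and 12805 CPM (Ergfl/fl) and 13705 and 14275 CPM (Rag1CreT/+;ErgΔ/Δ). The proB and preB libraries lay between 407 and 529 CPM, with 0 of the 7 markers at 0 in any library. Of the 7, 7 were lower in proB than in pre–proB cells. Between genotypes 7 of the 7 had a log2 fold change above 0. Of these, 0 were called by edgeR (2 at an unadjusted p below 0.05), beside 1.16% of all genes. T-cell markers summed to between 640 and 1462 CPM in pre–proB and between 29.8 and 92.0 CPM in proB and preB libraries. In pre–proB cells the largest part of this was Cd4, at means of 544 CPM (Ergfl/fl) and 919 CPM (Rag1CreT/+;ErgΔ/Δ). In such bulk libraries fewer cells of a type and less RNA per cell cannot be told apart.

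In the Ergfl/fl stages, 8 of the 9 genes were higher in proB than in pre–proB cells, and from proB to preB they parted. Bach2, Myb and Sox4 rose again, Lef1 and Runx1 fell, and Ebf1, Pax5, Pou2af1 and Bcl6 did not pass the test. These counts stand against a background of very many changes. In the edgeR quasi-likelihood test with Benjamini-Hochberg adjustment, 73.0% of all 13650 genes tested were called at an adjusted p below 0.05 between proB and pre–proB cells, and 36.2% were higher in proB. Between preB and proB cells 58.9% were called, 29.0% higher and 29.9% lower in preB. Between preB and pre–proB cells 70.7% were called and 36.5% were higher in preB, and 6 of the 9 genes rose there, all but Lef1, Runx1 and Bcl6.

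**Figure D1:**
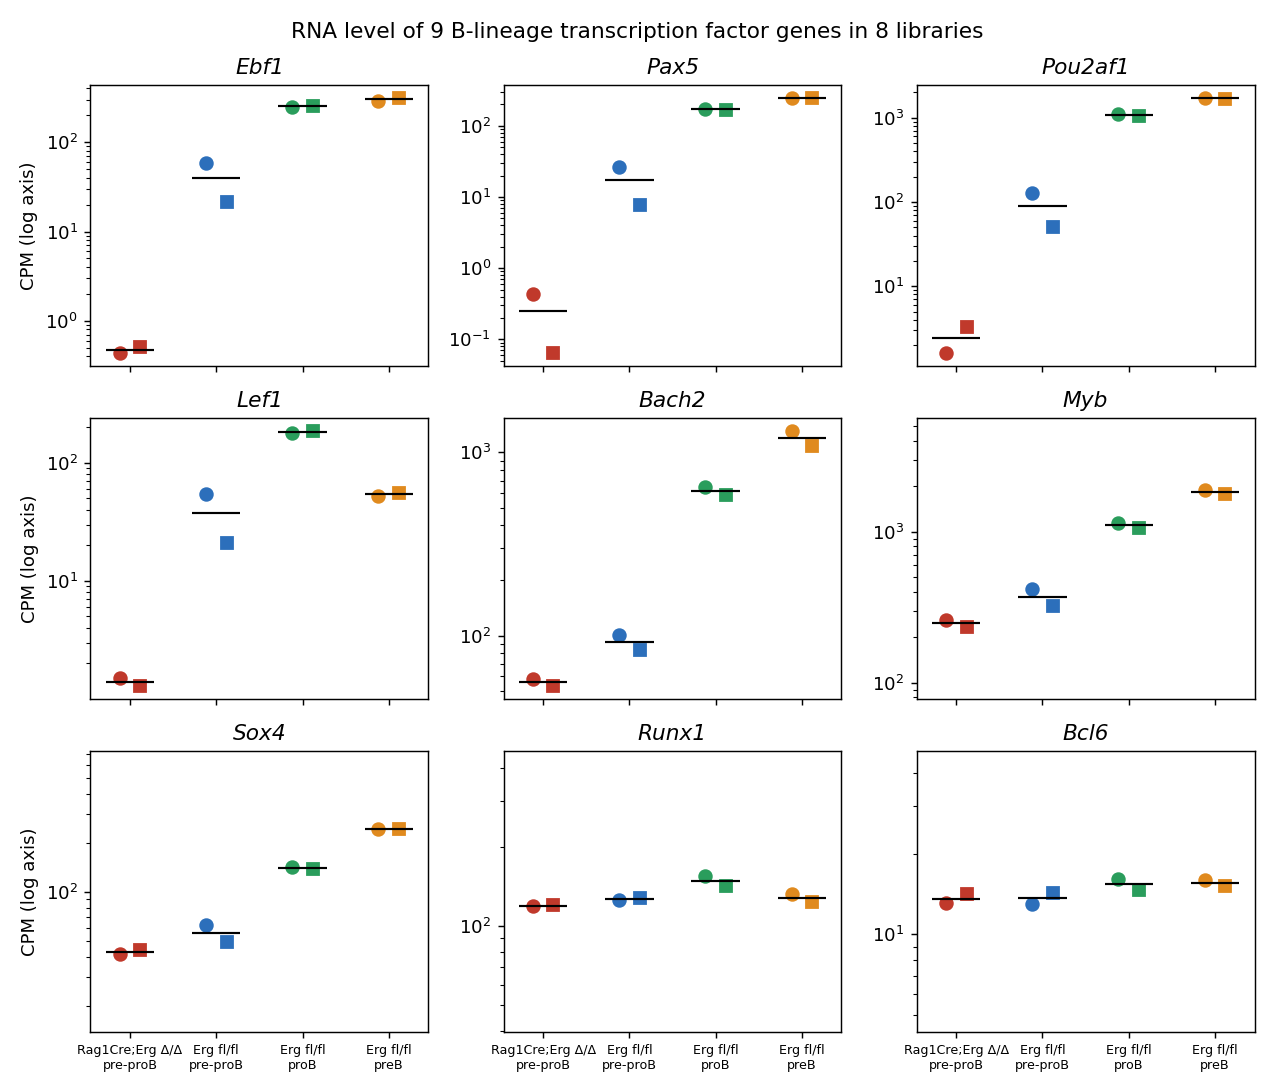
RNA level of each gene in CPM on a log axis, in 4 populations; circles are replicate 1, squares replicate 2 and black lines the mean of the 2. Ebf1, Pax5, Pou2af1 and Lef1 lie far below all other libraries in Rag1CreT/+;ErgΔ/Δ pre–proB cells, Lef1 alone of these falls from proB to preB, and Runx1 and Bcl6 stay within 1.25-fold and 1.14-fold over all 4 group means.

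In CPM, the Ebf1 levels were 59.1 and 21.3 in the Ergfl/fl pre–proB replicates, then 250 and 253 (proB), then 287 and 315 (preB). The populations did not overlap, and the log2 fold change from pre–proB to proB was 2.69 (SE 0.340, edgeR adjusted p = 0.000109). From proB to preB it was 0.27 (SE 0.304, edgeR adjusted p = 0.476). Pax5, which Ebf1 activates, had pre–proB levels of 26.8 and 7.78 CPM, proB levels of 172 and 168 and preB levels of 248 and 247. Its rise into proB was a log2 fold change of 3.34 (SE 0.362, edgeR adjusted p = 4.05e-05). The further step to preB was 0.55 (SE 0.299, edgeR adjusted p = 0.146), and again the libraries did not overlap. Pou2af1 rose from 128 and 50.4 CPM (pre–proB) to 1114 and 1061 (proB) and 1729 and 1658 (preB). That was a log2 fold change of 3.65 (SE 0.347, edgeR adjusted p = 1.77e-05) and then of 0.65 (SE 0.309, edgeR adjusted p = 0.103). These 3 genes passed the threshold between preB and proB when either Ergfl/fl pre–proB library was left out, which brought the count of the 9 genes called there from 5 to 8.

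Lef1 peaked in proB cells. Its pre–proB levels were 54.1 and 20.9 CPM, its proB levels 180 and 187 and its preB levels 52.7 and 55.7. The level thus rose into proB with a log2 fold change of 2.33 (SE 0.309, edgeR adjusted p = 0.000146) and fell by 1.75 (SE 0.296, edgeR adjusted p = 0.00116) into preB, where it overlapped pre–proB. The difference between preB and pre–proB was 0.58 (SE 0.318, edgeR adjusted p = 0.134) and passed the threshold at 1.41 without pre–proB replicate 1. Erg peaked in proB cells as well, at 144 and 127 CPM, with 69.1 and 25.3 CPM in Ergfl/fl pre–proB and 19.6 and 28.7 CPM in preB libraries. Its log2 fold change from pre–proB to preB was below 0, at -0.92 (SE 0.389, edgeR adjusted p = 0.0619), where that of Lef1 was above 0. The 8 libraries share their groups, and in 2 of them Erg was deleted. Over these 8 the log2 CPM of Lef1 and Erg had a Pearson's r of 0.97, which placed Erg at rank 32 for Lef1 among 10229 genes. The ranks of Erg for Ebf1 (r = 0.86), Pax5 (0.83) and Pou2af1 (0.81) were 525, 1325 and 1873.

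Bach2, Myb and Sox4 rose at each step. Bach2 went from 101 and 83.1 CPM (pre–proB) to 644 and 586 (proB) and to 1312 and 1082 (preB). The steps were log2 fold changes of 2.77 (SE 0.126, edgeR adjusted p = 1.96e-07) and 0.97 (SE 0.117, edgeR adjusted p = 0.000186). No library of a stage overlapped those of another. Myb was the most abundant of the 3, going from 417 and 322 CPM to 1147 and 1058 and to 1883 and 1773, with steps of 1.61 (SE 0.118) and 0.74 (SE 0.115), at adjusted p = 3.38e-06 and 0.000755 from edgeR. Sox4 went from 62.8 and 49.1 CPM to 142 and 138 and then to 245 and 244, in steps of 1.36 (SE 0.0994) and 0.81 (SE 0.0937), at adjusted p = 3.39e-06 and 0.000145 from edgeR. The replicates of proB and of preB lay within 1.21-fold of each other for all 9 genes.

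Runx1 and Bcl6 were nearly flat. Runx1, which is required from the first blood stem cells onwards, had levels of 126 and 128 CPM (pre–proB), 155 and 143 (proB) and 133 and 124 (preB). Its small rise of 0.27 (SE 0.0640, edgeR adjusted p = 0.00437) and small fall of 0.21 (SE 0.0638, edgeR adjusted p = 0.0207) both passed the test. Bcl6 was at 13.0 and 14.3, 16.1 and 14.7, and 15.9 and 15.1 CPM, the log2 fold changes being 0.20 (SE 0.113, edgeR adjusted p = 0.138) and 0.02 (SE 0.111, edgeR adjusted p = 0.903). The stage comparisons set proB and preB cells against pre–proB libraries rich in plasmacytoid dendritic cell markers. Proliferation markers moved with the stages too, their 5 genes summing to between 1066 and 1194 CPM in the 4 pre–proB libraries and between 3038 and 5089 CPM in proB and preB. The part of either in the rises was not tested.

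Levels were compared between genes per length, as FPKM (CPM per kilobase of the joined exons of GENCODE M21). In proB cells Pou2af1 had the highest mean level at 427 ± 14.7 FPKM (SD, n = 2), followed by Myb at 292 ± 16.8 and Bach2 at 69.2 ± 4.57. Lef1 at 52.4 ± 1.28 and Ebf1 at 42.0 ± 0.306 FPKM lay above Sox4 at 29.2 ± 0.497, Pax5 at 21.3 ± 0.304 and Runx1 at 20.0 ± 1.16 FPKM, and Bcl6 was lowest at 4.36 ± 0.270 (all SD, n = 2). In Ergfl/fl pre–proB cells the order differed, with Myb first at 97.9 ± 17.8 FPKM, then Pou2af1 at 35.0 ± 21.5 and Runx1 at 17.0 ± 0.190, and with Pax5 last at 2.16 ± 1.68 FPKM (SD, n = 2). In Rag1CreT/+;ErgΔ/Δ pre–proB cells Myb (65.5 ± 4.54), Runx1 (16.1 ± 0.208) and Sox4 (8.90 ± 0.374) led, and Ebf1 and Pax5 were at 0.0797 ± 0.00934 and 0.0314 ± 0.0329 FPKM (SD, n = 2).

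Between Rag1CreT/+;ErgΔ/Δ and Ergfl/fl pre–proB cells the 9 genes differed by unequal amounts. Ebf1, Pax5, Pou2af1 and Lef1 stood at between 1.19% and 3.72% of their mean Ergfl/fl pre–proB level, Bach2, Myb and Sox4 at between 60.3% and 76.3%, and Runx1 and Bcl6 at 94.8% and 99.4%. Of the 9 genes, 5 were called lower and 0 higher by edgeR's quasi-likelihood test in the fit of the 4 pre–proB libraries. Over all 13005 genes tested 1.16% were called and 0.946% were called lower. The libraries of the genotypes did not overlap for 8 of the 9 genes, against 44.7% of all genes. Fold changes for Bach2, Myb and Sox4 were much smaller in size than for the first 4.

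Lef1 fell from 54.1 and 20.9 CPM in the Ergfl/fl to 1.50 and 1.29 CPM in the Rag1CreT/+;ErgΔ/Δ libraries, where 24 and 20 counts remained. The log2 fold change was -4.75 (SE 0.552, edgeR adjusted p = 0.0203). Ebf1, Pax5 and Pou2af1 had log2 fold changes of -6.39, -6.06 and -5.20, with edgeR adjusted p of 0.0178, 0.0356 and 0.0178. Pax5 was down to 7 and 1 counts in the Rag1CreT/+;ErgΔ/Δ libraries, where a single count is 0.0646 CPM, so its fold change rests on few counts. Bach2 was at 58.1 and 53.1 CPM in Rag1CreT/+;ErgΔ/Δ cells and its fall of 0.74 (SE 0.113, edgeR adjusted p = 0.0404) was close to the threshold.

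Myb was at 417 and 322 CPM in the Ergfl/fl and 259 and 235 CPM in the Rag1CreT/+;ErgΔ/Δ pre–proB libraries. Its log2 fold change of -0.59 (SE 0.132, edgeR adjusted p = 0.104) did not pass in the fit of 4 libraries, but it did with all 8 libraries in 1 fit (-0.58, adjusted p = 0.0307 from edgeR). Sox4 was at 62.8 and 49.1 against 41.4 and 44.0 CPM, a log2 fold change of -0.40 (SE 0.127, edgeR adjusted p = 0.256). Runx1, at 126 and 128 against 119 and 121 CPM, had -0.09 (SE 0.0587, edgeR adjusted p = 0.588). Bcl6, at 13.0 and 14.3 against 13.1 and 14.1 CPM, had -0.02 (SE 0.125, edgeR adjusted p = 0.967), and its libraries overlapped. All 5 calls rested on both Rag1CreT/+;ErgΔ/Δ libraries, since 0 of the 9 genes passed in edgeR without replicate 1 (6 at an unadjusted p below 0.05) or without replicate 2 (7 unadjusted). With limma-voom 0 passed (7 unadjusted) and with DESeq2 6. Over 15 alternatives the log2 fold changes lay between -6.97 and -5.46 for Ebf1, -7.92 and -4.90 for Pax5, -5.79 and -4.36 for Pou2af1, -5.30 and -3.90 for Lef1 and -0.90 and -0.58 for Bach2. Without Ergfl/fl replicate 2, 7 passed, Myb (-0.79) and Sox4 (-0.59) among them.

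**Figure D2:**
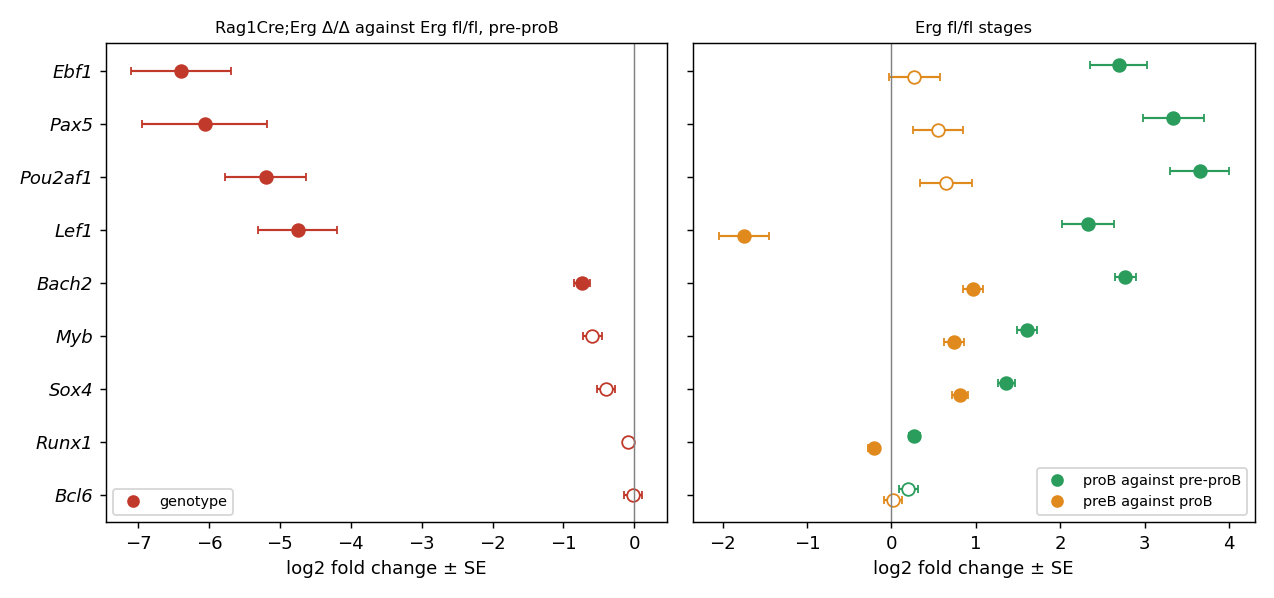
Log2 fold change with its standard error for each gene, on the left Rag1CreT/+;ErgΔ/Δ against Ergfl/fl pre–proB cells and on the right the steps between Ergfl/fl stages; filled points passed an adjusted p below 0.05 in edgeR and open points did not. Ebf1, Pax5, Pou2af1 and Lef1 lie between -6.39 and -4.75 on the left and the other genes between -0.74 and -0.02, although Bach2 rose as far into proB (2.77) as Ebf1 (2.69).

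The stage profile of a gene and its level in Rag1CreT/+;ErgΔ/Δ cells could be set side by side, but both are measured against the same 2 Ergfl/fl pre–proB libraries. Ebf1 and Bach2 stood at 16.0% and 15.0% of their proB mean in Ergfl/fl pre–proB cells, although the share of Ebf1 is the mean of libraries as far apart as 59.1 and 21.3 CPM, and in Rag1CreT/+;ErgΔ/Δ cells at 0.190% and 9.04% of it. Pou2af1, at 8.20% of its proB mean in Ergfl/fl pre–proB cells, went to 0.226%, Pax5 from 10.2% to 0.147% and Lef1 from 20.4% to 0.760%. For Myb the shares were 33.5% and 22.4%, for Sox4 40.0% and 30.5%, for Runx1 84.7% and 80.3% and for Bcl6 89.0% and 88.4%.

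On this linear scale the 9 genes stood in another order than on the log scale. The difference in CPM between the genotypes in pre–proB cells (Ergfl/fl minus Rag1CreT/+;ErgΔ/Δ), as a percentage of the proB mean, was 15.8% for Ebf1, 10.0% for Pax5, 7.97% for Pou2af1 and 19.7% for Lef1. For Myb and Sox4, whose fold changes did not pass the test, it was 11.1% and 9.46%, and for Bach2 5.96%. For Runx1 the difference was 4.40% and for Bcl6 0.566%, the latter being -3.72% against replicate 1 alone and 4.85% against replicate 2 alone of the Ergfl/fl pre–proB libraries. A gene's fall on this scale cannot exceed its Ergfl/fl pre–proB share of the proB mean. That share was 10.2% for Pax5 and 8.20% for Pou2af1, against 33.5% for Myb and 40.0% for Sox4. The measure was chosen after the values were seen and carries no test.

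**Figure D3:**
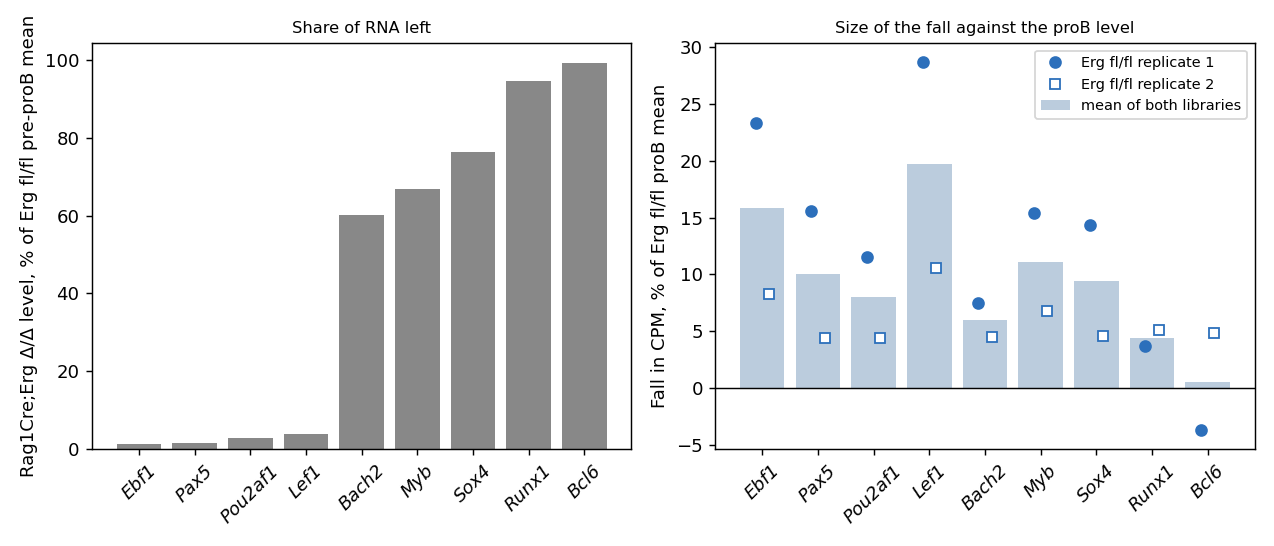
The same difference on 2 scales: left, the mean level in Rag1CreT/+;ErgΔ/Δ pre–proB cells as a percentage of the Ergfl/fl pre–proB mean; right, the difference in CPM as a percentage of the Ergfl/fl proB mean, as the mean (bars) and from each Ergfl/fl pre–proB library (points). On the left the genes fall into a group under 3.72% and a group over 60.3%, while on the right Myb (11.1%) and Sox4 (9.46%) lie beside Pax5 (10.0%) and Pou2af1 (7.97%). A bar on the right cannot exceed the gene's Ergfl/fl pre–proB share of the proB mean. That share was 10.2% for Pax5 and 8.20% for Pou2af1, against 33.5% for Myb and 40.0% for Sox4.

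The 2 Ergfl/fl pre–proB libraries themselves differed, among the 9 genes, most in the 4 with the deepest falls. Replicate 1 held 2.77 times the Ebf1 level of replicate 2, 3.45 times that of Pax5, 2.54 times that of Pou2af1 and 2.59 times that of Lef1. The ratio was 1.22 for Bach2, 1.30 for Myb, 1.28 for Sox4, 0.984 for Runx1 and 0.908 for Bcl6. Over 10277 genes at 5 CPM or more, the median ratio was 0.975 and 1.01% of genes were more than 2-fold higher in replicate 1 than in replicate 2. Erg differed as well, with a ratio of 2.73. Among the genes that Ebf1 or Pax5 activate, so did Cd79a (2.82), Vpreb1 (2.93), Vpreb3 (2.80), Igll1 (2.94), Cplx2 (2.90), Rag1 (2.35) and Rag2 (2.31). All of these were also called lower between the genotypes. Others of that list had lower ratios and were not called. These were 1.68 for Cd79b, 1.35 for Nedd9, 1.04 for Blk, 1.15 for Blnk, 1.09 for Cd72, 1.09 for Ikzf3, 0.806 for Cd22 and 0.865 for Irf8. Of the 6 myeloid markers, S100a8, at a mean of 19.4 CPM, had 2.91, Lyz2 1.71 and Itgam 1.30. Elane, Mpo and Csf1r had 0.818, 0.816 and 0.799. Taken against replicate 1 alone the difference for Ebf1 was 23.3% of its proB mean and against replicate 2 alone 8.29%. For Myb these values were 15.4% and 6.77% and for Sox4 14.3% and 4.58%. Without either library the falls of Ebf1, Pax5, Pou2af1 and Lef1 kept their direction. The log2 fold change of Ebf1 between genotypes was -5.46 without replicate 1 and -6.97 without replicate 2, and that of Lef1 was -3.90 and -5.30. The rise of Ebf1 into proB was 3.59 without replicate 1 and 2.13 without replicate 2, and that of Pax5 4.48 and 2.70.

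**Figure D4:**
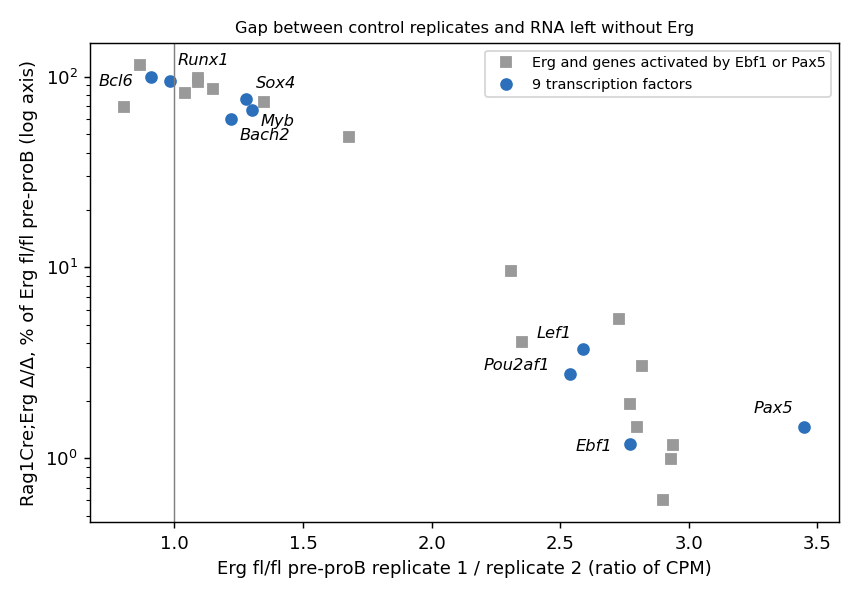
Each point is a gene: the ratio of its CPM in Ergfl/fl pre–proB replicate 1 to replicate 2 against the percentage of its Ergfl/fl mean that was left in Rag1CreT/+;ErgΔ/Δ pre–proB cells (log axis), for the 9 transcription factors and for Erg with 16 genes that Ebf1 or Pax5 activate. Genes with a ratio above 2, Ebf1, Pax5, Pou2af1 and Lef1 among them, had under 10.0% left; both axes use the same Ergfl/fl libraries.

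In the fit of all 8 libraries the order of the levels was preB, proB, Ergfl/fl pre–proB and Rag1CreT/+;ErgΔ/Δ pre–proB for 7 of the genes, and proB came before preB for Lef1 and Runx1. Bach2 and Myb passed the threshold between every pair of neighbours in that order, and Bcl6 between none. Ebf1, Pax5 and Pou2af1 did not pass it between preB and proB, although their libraries there did not overlap. The spread used in that test is shared with the Ergfl/fl pre–proB libraries, which lay far apart for these genes. Lef1 did not pass between preB and Ergfl/fl pre–proB, and Sox4 did not pass between the genotypes. For Runx1 the only neighbouring pair that passed was proB and preB (log2 difference 0.22, adjusted p = 0.0142 from edgeR). Of 27 such pairs 17 passed. In this fit 3.20% of all genes were called between the genotypes, 72.6% between proB and pre–proB, 58.0% between preB and proB and 69.9% between preB and pre–proB. Against Rag1CreT/+;ErgΔ/Δ pre–proB cells 76.3% were called in proB and 73.0% in preB, comparisons in which stage and genotype differ at once.

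Among the 9 genes the profiles over the 8 libraries fell into similar sets, given here as Pearson's r of log2 CPM over 8 libraries, 2 of each group. Ebf1, Pax5 and Pou2af1 had r between 0.98 and 0.99 with each other, and Bach2, Myb and Sox4 between 0.99 and 1.00. Lef1 was most like Ebf1 (0.96), and Runx1 was most like Lef1 (0.78). Of 10229 other genes with a mean of at least 5 CPM, the 3 most alike to Ebf1 included Vpreb3 and Cplx2 (r of 1.000 and 0.997). Those for Pax5 were Rag2, Asb2 and Trim2, and for Pou2af1 an Entrez identifier without a symbol (100503944), Cd79a and Ehd2. For Lef1 they were Gfra2, Csgalnact1 and Bcat1, for Bach2 Syvn1, Irf4 and Tmem131l, for Myb Slc25a37, Chst3 and Lrrn3, and for Sox4 Fam43a, Tmcc1 and Klhl6. For Runx1 they were Bbs1, Las1l and Jade3 (r between 0.962 and 0.989) and for Bcl6 Plpbp, Exoc8 and Ttc9c (0.953 to 0.978), the lowest values of the 9.

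Genes that Ebf1 or Pax5 are known to activate moved with them in part. Of 16, 8 were called lower and 0 higher in Rag1CreT/+;ErgΔ/Δ than in Ergfl/fl pre–proB cells. Over all genes 1.16% were called and 0.946% were called lower. The median log2 fold change of the 16 was -2.23 beside 0.01 over all genes. As for the 9 genes, 0 of the 16 passed with limma-voom (13 unadjusted) or in edgeR without either Rag1CreT/+;ErgΔ/Δ library. The 8 included the signalling chain Cd79a, the surrogate light chain genes Vpreb1, Vpreb3 and Igll1, the recombinase genes Rag1 and Rag2, and Cplx2. The other 8 were not called, among them the signalling chain Cd79b at -1.06 (adjusted p = 0.0922 from edgeR), Cd22 at -0.53 (0.0764), the adaptor Blnk at -0.23 (0.357) and Cd72 at -0.04 (0.891). From pre–proB to proB, 15 of the 16 rose and 1 fell, which was Irf8 at -4.16, a gene also highly expressed in plasmacytoid dendritic cells and one of the 7 markers summed above. Over all genes 36.2% were higher in proB there.

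Of 11 genes that Ebf1 or Pax5 are known to repress, 0 were called by edgeR between the genotypes, beside 1.16% of all genes. In lists this short a count of 0 says little beside that share. At an unadjusted p below 0.05 there were 2, and 1 passed adjusted with DESeq2. The median log2 fold change of the 11 was 0.14. Gata3, a T-lineage and innate lymphoid regulator, was at 0.578 and 0.729 CPM in Ergfl/fl and 2.06 and 2.78 CPM in Rag1CreT/+;ErgΔ/Δ libraries, a log2 fold change of 1.86 (SE 0.355, edgeR adjusted p = 0.0753). Flt3, a cytokine receptor of early progenitors that dendritic cells also use, was at 502 and 580 against 565 and 602 CPM. From pre–proB to proB, 10 of the 11 fell and 0 rose, with a median of -1.87 beside 0.00 over all genes, of which 73.0% were called. NK-cell markers were higher in Rag1CreT/+;ErgΔ/Δ cells, where their 7 genes summed to 93.3 and 164 CPM against 30.0 and 34.8 CPM. Of the 7, 4 were called higher by edgeR, Ncr1, Nkg7, Prf1 and Gzma, beside 1.16% of all genes called in either direction. With limma-voom 0 passed (7 unadjusted) and with DESeq2 6. The gate given for the study's sorts left out cells bearing an NK-cell or a dendritic-cell surface marker. T-cell markers summed to 1462 and 818 against 640 and 803 CPM, with 0 of 7 called by edgeR and 2 at an unadjusted p below 0.05. Most of these sums was Cd4, at means of 919 against 544 CPM (log2 fold change 0.75). Cd8a was at means of 156 against 117 CPM (0.40) and Lck at 48.3 against 42.4 CPM (0.18). Cd3d, Cd3e, Cd3g and Bcl11b had means between 1.30 and 6.01 CPM in the 2 pre–proB populations. The log2 fold changes of Cd3d, Cd3e, Cd3g and Bcl11b between genotypes lay between -0.27 and 0.07. Whether cells of other lineages take part in the levels of Gata3 was not tested. Of 7 genes tested that Bcl6 or Bach2 are known to repress, 0 were called by edgeR between the genotypes (2 unadjusted, 1 with DESeq2), and the repressor of B-cell identity Prdm1 was at 1.73 and 1.15 against 1.62 and 1.74 CPM. From pre–proB to proB 4 of these 7 rose and 1 fell, a share called no higher than the 73.0% over all genes, and Prdm1 rose by 1.19 (adjusted p = 0.00536 from edgeR) while Bach2 rose as well.

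In edgeR 0 of 9 tested family relatives and 0 of 15 tested partner proteins were called between the genotypes, beside 1.16% of all genes. At an unadjusted p below 0.05 there were 2 and 2, and with DESeq2 1 and 0 passed. The lowest p among the relatives belonged to Bcl6b, a paralogue of Bcl6, which was at 3.66 and 1.22 CPM in Ergfl/fl and 0.125 and 0.194 CPM in Rag1CreT/+;ErgΔ/Δ libraries (log2 fold change -3.88, SE 0.759, edgeR adjusted p = 0.0763). Tcf7, another Tcf/Lef factor of lymphocytes, was at 18.1 and 19.1 against 19.9 and 23.6 CPM, while Lef1 fell. From pre–proB to proB Tcf7 fell by 1.01 (adjusted p = 8.42e-05 from edgeR) where Lef1 rose, and both fell from proB to preB, Tcf7 by 1.36 (adjusted p = 8.22e-05). Runx2 fell by 6.01 and Runx3 by 1.28 from pre–proB to proB, where Runx1 rose by 0.27. Runx2 is itself abundant in plasmacytoid dendritic cells, whose markers fell between the same libraries. Of 10 relatives tested over the stages, 4 rose and 5 fell into proB and 0 rose and 8 fell from proB to preB, where the shares over all genes were 73.0% called in the first step and 29.0% higher and 29.9% lower in the second.

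Of 12 regulators that act before or beside Ebf1, 1 was called lower between the genotypes, Erg itself, beside 0.946% of all genes. The E protein gene Tcf3 was at -0.53 (adjusted p = 0.0869 from edgeR), Foxo1 at -0.44 (0.175) and Gfi1 at -1.12 (0.182), and the Ets factor genes Ets1 and Fli1 at -0.03 and 0.00. From pre–proB to proB 8 of the 12 rose and 3 fell, and from proB to preB 7 rose and 3 fell, beside 73.0% and 58.9% of all genes called in either direction.

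Exons of annotated genes on the other strand overlap some of the 9. Sox4 shares 2616 exonic bases with Gm26735, Lef1 1208 with Gm43352, Bach2 537 with Bach2os and Myb 491 with Gm26577, and reads from the 2 strands cannot be told apart where strand was not used in counting. Bach2os, the one of these with a row of its own, was at most 3.31 CPM in any library.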

How the data were processed

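RNA was sequenced from sorted cells on an Illumina HiSeq 2500 as paired reads of 100 bp. The authors removed adapters with Trim Galore, aligned to mm10 with STAR, counted with featureCounts and the Entrez annotation of Rsubread, and deposited whole-number counts per gene without normalization for 8 libraries. CASAVA 1.8.2 is named in the submitters' processing notes; for strand use and for reads with several possible genes, the setting is not given in the sources used here. Libraries were grouped by their labels. The replicates of each group differed by more than sampling noise (chi-square per degree of freedom 3.90 to 8.44). The members and gene lists were chosen with earlier results of these data known.

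Here CPM were computed with TMM library sizes. edgeR 4.0.16 (R 4.3.3; glmQLFit with the legacy method, glmQLFTest) was fitted to the 4 pre–proB libraries, to the 6 Ergfl/fl libraries and to all 8, keeping genes that reached 0.5 CPM in 2 or more of the fitted libraries. P-values were adjusted by Benjamini-Hochberg over all genes kept and called below 0.05. The standard error is the log2 fold change over the square root of F. Of 27179 identifiers, 25275 took symbols from RefSeq and 18 from GENCODE; 1886 without a symbol held 0.571% of the counts and stayed in. FPKM used exon lengths of GENCODE M21. Named genes were the 9 members, called genes and up to 4 others of each list, the 3 genes most correlated with each member, Erg, and marker genes; 1 gene of these lists is counted in them but not reported here. The genes whose replicate ratios are given, other than Erg and the 9 members, and the percentages of the proB mean, were chosen after the values were seen. Alternatives were RLE size factors, total counts, no filter, 1 CPM, DESeq2 1.42.0, limma-voom (limma 3.58.1), edgeR's version 4 method, robust estimation, 1 fit of 8 libraries, a fit without immunoglobulin genes, a block for the replicate number, and each library left out. Figures used matplotlib.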

Additional observations from a re-analysis of the deposited data

How the results depend on the processing

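Over the alternatives the rise of each gene from pre–proB to proB kept its direction and its side of the threshold in 153 of 153 values. For the genotype comparison 107 of 135 values did, and 21 lost the call. The number of the 9 genes called lower was 5, and it was 0 with limma-voom, 1 with robust estimation, 3 with edgeR's version 4 method and 0 to 7 with 1 library left out, at 0 without either Rag1CreT/+;ErgΔ/Δ library. All genes called between genotypes numbered 279 with no filter, 400 with DESeq2, 41 with limma-voom, 88 with edgeR's version 4 method, 442 with all 8 libraries in 1 fit and 14 to 607 with 1 library left out. The replicate numbers did not pair the samples (correlations of deviations from -0.03 to 0.12). With the replicate number as a block 265 genes and 6 of the 9 members were called, Myb being added; with that block relatives called numbered 1, genes repressed by Ebf1 or Pax5 1 and genes repressed by Bcl6 or Bach2 1.

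Bcl6, at or near 0 throughout, changed sign between preB and proB, to -0.00 with RLE size factors, -0.04 with total counts, -0.02 with no filter, -0.03 with a filter of 1 CPM and -0.00 with DESeq2, and lay between -0.08 and 0.04 with 1 library left out. Between genotypes it lay between -0.08 and 0.04 in the same way. Between preB and proB, leaving out 1 library gave 4 to 8 of the 9 genes and 8 to 13 of the genes activated by Ebf1 or Pax5, and robust estimation gave 5 of the latter.

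Between genotypes, relatives called numbered 1 with no filter, 1 with DESeq2, 2 in 1 fit of 8 libraries and 0 to 1 with 1 library left out. Upstream regulators called numbered 3 with DESeq2, 0 with limma-voom, 0 with robust estimation, 2 in 1 fit of 8 libraries and 0 to 4 with 1 library left out. Partner genes numbered 0 to 1 with 1 library left out. Genes activated by Ebf1 or Pax5 called numbered 0 with limma-voom, 0 with robust estimation and 0 to 10 with 1 library left out. Genes repressed by Ebf1 or Pax5, and those repressed by Bcl6 or Bach2, numbered 1 with DESeq2, 1 in 1 fit of 8 libraries and 0 to 1 with 1 library left out. The cause of these changes was not tested. Pax5 and Ebf1 had 8 and 15 counts over both Rag1CreT/+;ErgΔ/Δ libraries, which limits the precision of their fold changes.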
